A study of Mus musculus with 32 samples.

Results

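The transcripts described here lie on the 5′ side of genes and run in the same direction as the gene. They were compared between H1-TKO mouse embryonic stem cells, which carry a triple knockout of histone H1, and wild-type (WT) embryonic stem cells, both cultured in serum with leukaemia inhibitory factor. The labels give no clone, strain or passage. The RNA was cheRNA, the RNA that remains in the insoluble chromatin pellet after extraction with urea and detergent, and 3 samples of each genotype were sequenced with a stranded kit. MapR was available for the same genotypes, with 2 libraries per genotype made with the RNase H and nuclease fusion (RNH) and 1 control library per genotype made with the nuclease alone. The authors' deposited table lists 5723 rows that changed at least 2.00-fold, of which 324 are named as sense transcripts on the 5′ side of a gene. Chromosomes 9 and 11 were left out, which leaves 261 such transcripts, named for 261 different genes. On the chromosomes left out, 7 of 18 and 40 of 45 transcripts of this kind were higher in TKO.

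Linker histone H1 binds DNA at the entry and exit of the nucleosome and compacts chromatin. The line is known to lack H1c, H1d and H1e. RNA polymerase can begin upstream of an annotated gene start, at an unannotated or alternative start or by running on from a neighbouring gene, and such RNA is often retained on chromatin and degraded there. An R-loop is an RNA-DNA hybrid with a displaced DNA strand, and MapR releases DNA next to such hybrids.

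The deposited table holds 1 log2 fold change per row and neither a value per sample nor a p-value, so no error can be given for a fold and no level can be compared. The direction of the fold is not stated. The gene rows of Hist1h1d, Hist1h1e and Hist1h1c, the deleted genes, had log2 values of -5.02, -4.83 and -3.61 once the deposited sign was turned, and all values are given in that sense, as TKO over WT. This reading is an inference, and these genes are no independent check. Because unchanged rows are not in the table, the embryonic stem cell label could not be checked by the level of its markers. Of 28 markers of pluripotent stem cells on the chromosomes used, 1 had a transcript among the 261, Klf2, a transcription factor of naive pluripotency, whose 5′-side transcript was 3.15-fold higher in TKO.

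Most of the listed rows of these transcripts ended where the named gene begins. Of the 249 whose gene was found in RefSeq on the same strand, 206 (82.7%) ended exactly at an annotated start of that gene, allowing 1 bp. Where the table also held a row of the gene class with the same name, 114 of the 120 such pairs carried the same identifier of the assembled transcript and had at most 1 base between them. In these 114 pairs the transcript was the part of an assembled transcript before the gene row. In the other 6 pairs the rows had different identifiers, with up to 79998 bp between them, and for the 141 transcripts without a gene row this could not be looked up. All 261 are called upstream pieces. The base that follows the end of a piece after a gap of 1 base is called the gene start, also where no annotated start lies there. The end of a piece is the 3′ edge of its listed row, and no end of RNA was measured. The pieces were between 524 and 178647 bp wide, with a median of 7888 bp. There were 11 under 1 kb and 17 over 50 kb, 10 of which were lower in TKO.

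The sequences at both ends are shown for some upstream pieces. The start of a piece is, here and below, the 5′ edge of its listed row, and whether RNA synthesis began there was not measured. Each window covers 180 bases before and 20 bases from the first base, in the direction of transcription, and the CG dinucleotides are in capitals. Shown are the highest piece without a gene row and the lowest piece of all whose windows held at most 30 annotated UTR bases. With them stand the piece higher in TKO without a gene row, and the piece lower in TKO with one, that were closest to the medians of CpG content of their kind under the same limits. Sfpq encodes a splicing and paraspeckle protein, and its piece on the plus strand was 112-fold higher in TKO (windows chr4:127016805-127017004 and chr4:127021121-127021320, RefSeq build GRCm38.p6, which is also the build of all others).
Sfpq piece start: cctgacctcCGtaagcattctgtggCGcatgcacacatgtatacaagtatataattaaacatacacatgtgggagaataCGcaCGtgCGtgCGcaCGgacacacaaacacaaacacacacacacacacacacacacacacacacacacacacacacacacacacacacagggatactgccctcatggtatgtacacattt
Sfpq gene start: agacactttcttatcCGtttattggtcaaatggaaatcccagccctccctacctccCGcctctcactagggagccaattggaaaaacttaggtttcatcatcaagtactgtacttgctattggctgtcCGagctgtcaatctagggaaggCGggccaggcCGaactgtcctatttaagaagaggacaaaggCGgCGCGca
Plpp1 encodes a lipid phosphatase, and its piece on the plus strand was 3.36-fold higher (windows chr13:112798936-112799135 and chr13:112800597-112800796).
Plpp1 piece start: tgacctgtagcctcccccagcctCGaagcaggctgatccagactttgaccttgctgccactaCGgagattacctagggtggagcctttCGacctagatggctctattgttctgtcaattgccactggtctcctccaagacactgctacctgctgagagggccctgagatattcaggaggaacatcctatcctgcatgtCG
Plpp1 gene start: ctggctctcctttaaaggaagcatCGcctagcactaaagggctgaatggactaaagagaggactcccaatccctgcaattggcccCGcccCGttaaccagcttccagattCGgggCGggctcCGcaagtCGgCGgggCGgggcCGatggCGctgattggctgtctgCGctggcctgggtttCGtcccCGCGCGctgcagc
Dync1i1 encodes an intermediate chain of the motor dynein, and its piece on the plus strand was 89.2-fold lower (windows chr6:5724470-5724669 and chr6:5725459-5725658).
Dync1i1 piece start: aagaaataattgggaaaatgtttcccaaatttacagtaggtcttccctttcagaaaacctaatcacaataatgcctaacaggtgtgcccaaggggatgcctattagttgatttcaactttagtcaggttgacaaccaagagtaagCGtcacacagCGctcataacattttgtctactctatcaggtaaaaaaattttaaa
Dync1i1 gene start: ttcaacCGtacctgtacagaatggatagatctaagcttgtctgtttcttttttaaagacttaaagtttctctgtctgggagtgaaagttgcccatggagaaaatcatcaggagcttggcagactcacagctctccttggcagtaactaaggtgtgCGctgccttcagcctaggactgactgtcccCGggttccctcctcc
Adamts9 encodes a secreted metalloprotease, and its piece on the minus strand was 4.72-fold lower (windows chr6:92943794-92943993 and chr6:92901422-92901621).
Adamts9 piece start: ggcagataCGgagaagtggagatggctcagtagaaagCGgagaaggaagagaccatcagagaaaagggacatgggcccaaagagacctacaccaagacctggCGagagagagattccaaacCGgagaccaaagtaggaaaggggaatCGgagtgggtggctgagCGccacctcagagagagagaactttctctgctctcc
Adamts9 gene start: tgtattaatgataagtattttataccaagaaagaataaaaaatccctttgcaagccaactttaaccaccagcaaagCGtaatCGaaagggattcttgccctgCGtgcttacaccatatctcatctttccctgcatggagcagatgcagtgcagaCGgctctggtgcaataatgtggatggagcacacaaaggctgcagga
The Plpp1 windows held 4 CG dinucleotides at the start of the piece and 16 at the gene start. Those of Sfpq held 7 and 8, and the start of its piece lay beside a long run of alternating c and a. The windows of Dync1i1 held 2 and 3, and those of Adamts9 held 6 at the start of the piece and 4 at the gene start.

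The share of upstream pieces higher in TKO was near that of all listed rows. Of the 261, 168 (64.4%, 95% Wilson interval 58.4 to 69.9) were higher and 93 were lower. Of all 4842 listed rows on these chromosomes 58.9% were higher and 41.1% lower, and 58.9% lies within the interval for the pieces. Of 2442 gene rows 44.0% were higher and 56.0% lower, and of 1683 intergenic rows 72.7% were higher and 27.3% lower. Of 317 antisense rows within genes 271 (85.5%) were higher, and of 139 bidirectional rows 116 (83.5%). Intervals of this kind treat rows as independent and cover neither the spread between samples nor the overlap of rows. The median log2 TKO over WT was 2.40 among the higher pieces and -1.81 among the lower ones, and the piece closest to no change had an absolute value of 1.01. In bulk RNA, less RNA per cell and fewer cells that make it cannot be told apart. Over chromosomes, the share that was higher ran between 42.9% on chromosome 3 (6 of 14) and 86.7% on chromosome 12 (13 of 15).

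The direction differed with whether the gene that follows was itself listed. Of the 141 pieces without a gene row of the same name, 117 were higher in TKO (83.0%, Wilson interval 75.9 to 88.3) and 24 lower, a share like those of the antisense and bidirectional rows. Of the 120 with a gene row, 51 were higher (42.5%, Wilson interval 34.0 to 51.4) and 69 lower. Of all gene rows 44.0% were higher, and the gene rows of these pieces are among them. In 114 of the 120 pairs both rows came from the same assembled transcript, and in 118 both had the same direction. A pair also needs both rows to have changed at least 2-fold. The 42.5% thus largely restates the direction of the paired gene rows and is no independent result. Among pieces with an absolute log2 of at least 2 the majority with a gene row turned, with 39 of 71 higher (54.9%), and without one 66 of 73 were higher (90.4%). The split was present among short and long pieces. Without a gene row, 57 of 67 pieces of at most the median width and 60 of 74 longer ones were higher, against 32 of 64 and 19 of 56 with a gene row. A gene without a listed row may have changed less than 2-fold, may have missed the authors' test or may not have been assembled, and the table does not tell these apart.

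**Figure D1:**
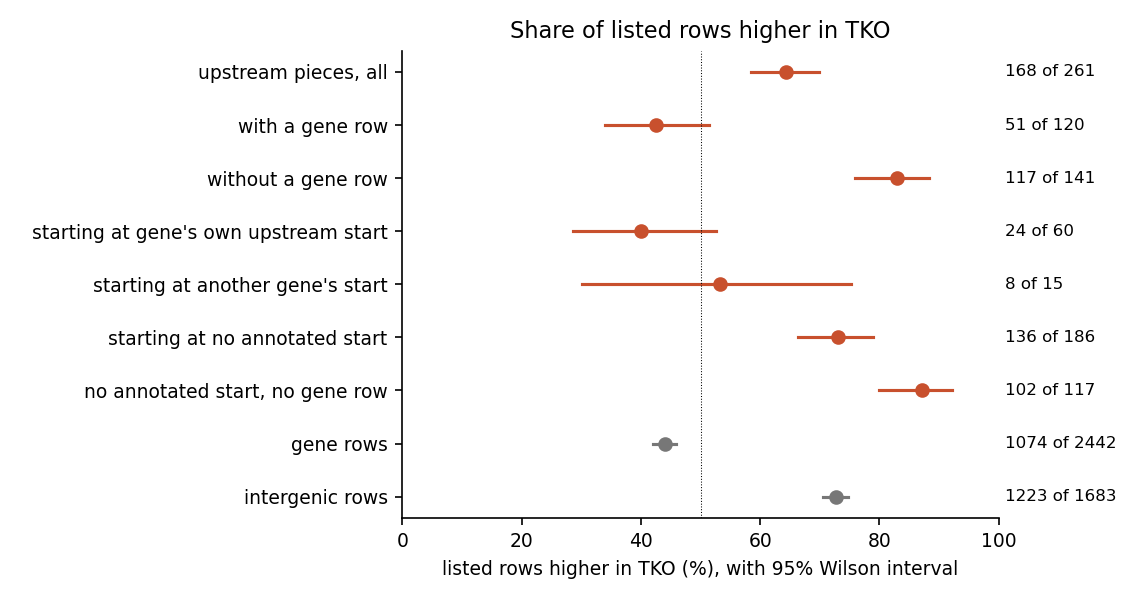
Share of listed rows higher in TKO (horizontal axis, percent), with 95% Wilson intervals as lines and counts at the right, for upstream pieces and their subsets (red) and for gene and intergenic rows (grey), chromosomes 9 and 11 left out. Pieces without a gene row stood at 83.0% and those with a gene row at 42.5%. Gene rows stood at 44.0% and include the rows paired with these pieces.

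Of the 12 highest upstream pieces, 5 had no gene row, 6 had a gene row with a smaller value and 1 had a gene row with a larger one. The piece before Spink13, a serine protease inhibitor gene (chr18:62741389-62749715), had a log2 TKO over WT of 9.28, while its gene row had 4.30. Calu encodes calumenin, a calcium-binding protein of the secretory pathway, and its piece of 19563 bp (chr6:29328542-29348104) had 8.27 with no gene row. The piece began inside the coding gene Fam71f1, which lies upstream on the same strand and had its 3′ end 7477 bp after the start of the piece. Nfkbia encodes the inhibitor that holds NF-κB in the cytoplasm. Its piece (chr12:55492649-55505284) was 175-fold higher in TKO, whereas the gene row was 2.12-fold higher. Sfpq (log2 TKO over WT 6.80), Clta, a clathrin light chain gene (6.51), Zfp260, a zinc finger gene (6.05), and BC026585 (5.61) had no gene row. Zc3hav1, an antiviral protein that binds CpG-rich RNA, had 5.61 before the gene and 2.45 in the gene row, and Pgpep1l had 5.63 and 1.56. Olfr460, an olfactory receptor gene, had 5.57 and 3.12, and Celf2, a regulator of splicing, 5.48 and 4.03. The gene row exceeded the piece for 2300002M23Rik, with 7.21 in the piece and 8.57 in the gene row. Without values per sample it cannot be said how many reads such folds rest on.

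Of the 12 lowest upstream pieces, 10 had a gene row, and all 10 gene rows were lower in TKO too. Dync1i1 had a log2 TKO over WT of -6.48 in its piece of 988 bp and -2.68 in the adjoining gene row. St7 had -5.89 in a piece of 1009 bp that began 51 bp from an annotated upstream start of St7 itself, and -1.32 in the gene row. Msln, which encodes the surface protein mesothelin, had -4.43 in the piece and -6.43 in the gene row. Myoz1, a protein of the muscle Z-disc, had -3.89 and -4.84. Its piece of 8823 bp began 790 bp before a start of Synpo2l, another muscle gene on the same strand. Synpo2l ended 6418 bp after the start of the piece, so the piece also ran over that gene. Ceacam20, a cell adhesion gene, had -4.12 and -3.43, and Plce1, a phospholipase C gene, -3.43 and -3.86. Slc44a1, a choline transporter gene, had -3.32 and -1.82, and Psd4, an exchange factor for Arf proteins, -3.23 and -1.05. Adgrl2, an adhesion receptor gene, differed by 0.03 between its piece (-3.23) and its gene row (-3.20), and Nrg1, which encodes the growth factor neuregulin, had -3.15 and -3.27. The pieces of Ddr1, a collagen receptor kinase gene (-3.86), and Rhobtb2 (-3.09) had no gene row.

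**Figure D2:**
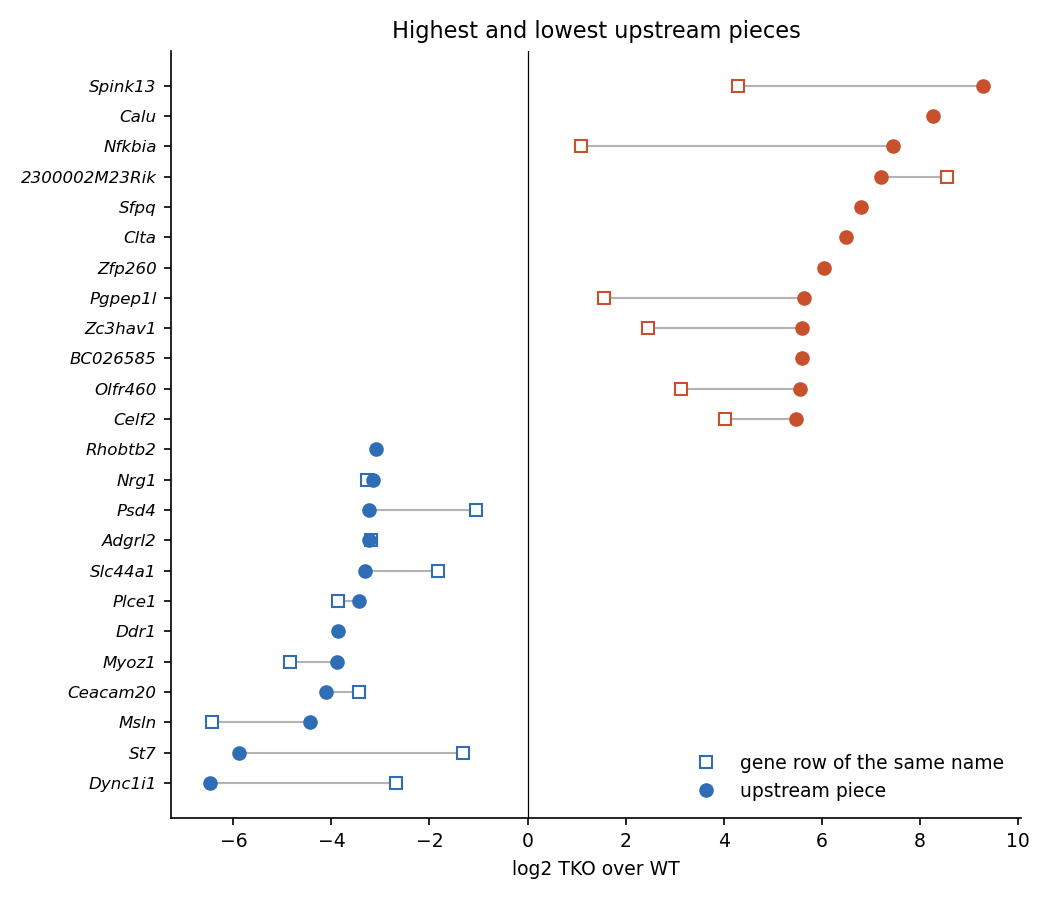
The 12 highest and 12 lowest upstream pieces (filled circles) with the gene row of the same name where one was listed (open squares), as log2 TKO over WT on the horizontal axis, red for higher and blue for lower pieces. The Nfkbia piece stood at 7.45 and its gene row at 1.08, while the 2 values of Nrg1 were -3.15 and -3.27.

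Piece and gene row went the same way in 118 of the 120 pairs (98.3%), with 49 both higher and 69 both lower. Both rows of a pair come from 1 assembled transcript in most cases and from the same samples, so the pairs are not independent measurements. Across pairs the 2 log2 values had a Pearson correlation of 0.87 and a Spearman correlation of 0.85 over both signs together. Within the pairs that were both higher Pearson's value was 0.48, and within those both lower 0.53. Among the 49 higher pairs the median log2 TKO over WT was 3.16 in the piece and 2.18 in the gene row, the piece had the larger value in 36, and the median difference within a pair was 0.33. Among the 69 lower pairs the medians were -1.87 and -1.80, the piece was the lower of the 2 in 33, and the median difference within a pair was 0.02. In all, 64 pairs lay within 0.5 log2 of each other, 43 of them lower and 21 higher. A further 17 lay more than 2 log2 apart, with the higher signed value in the piece in 13 and in the gene row in 4. The pieces of these pairs had a median width of 7219.5 bp and the gene rows 31080 bp. Several gene rows were listed for 22 genes, of which the one nearest to the piece was used, adjoining or not.

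Gaps are given as piece minus gene row, with sign. The widest with the higher signed value in the piece were those of Hist1h1d (6.65 log2), Nfkbia (6.37), Spink13 (4.98) and Pgpep1l (4.08). B3glct, a glycosyltransferase gene, had 4.80 in the piece and 1.22 in the gene row, and Cyct, which encodes the testis form of cytochrome c, 4.18 and 1.04. With the lower signed value in the piece, St7 (-4.57) and Dync1i1 (-3.80) were followed by Ttc29, a gene of sperm flagella. Its piece had 4.22 and its gene row 6.55. Next came Psd4 (-2.18), Slc44a1 (-1.50), the circadian kinase gene Csnk1e (-1.48), with -2.95 in the piece and -1.47 in the gene row, and Noct, a clock-controlled gene (-1.42). The smallest of these 8 gaps belonged to 2300002M23Rik (-1.36). Of the 8, Ttc29 and 2300002M23Rik changed more in the gene row, and the others, all lower in TKO, changed more in the piece.

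Opposite signs occurred in 2 pairs. Hist1h1d is one of the deleted genes. Its upstream piece of 8754 bp (chr13:23546277-23555030) was 3.10-fold higher in TKO, and the gene row that follows was 32.5-fold lower. The piece began 2225 bp from the nearest annotated sense start upstream of the gene, that of the core histone gene Hist1h3f. The extent of the deletion is not given in the sources used here. Smarcad1 encodes a chromatin remodeller, and its piece of 5284 bp (chr6:65037382-65042665) was 4.60-fold higher, while its gene row was 2.13-fold lower. The nearest annotated sense start upstream of the gene, that of Gm15534, lay 46435 bp from the start of the piece.

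**Figure D3:**
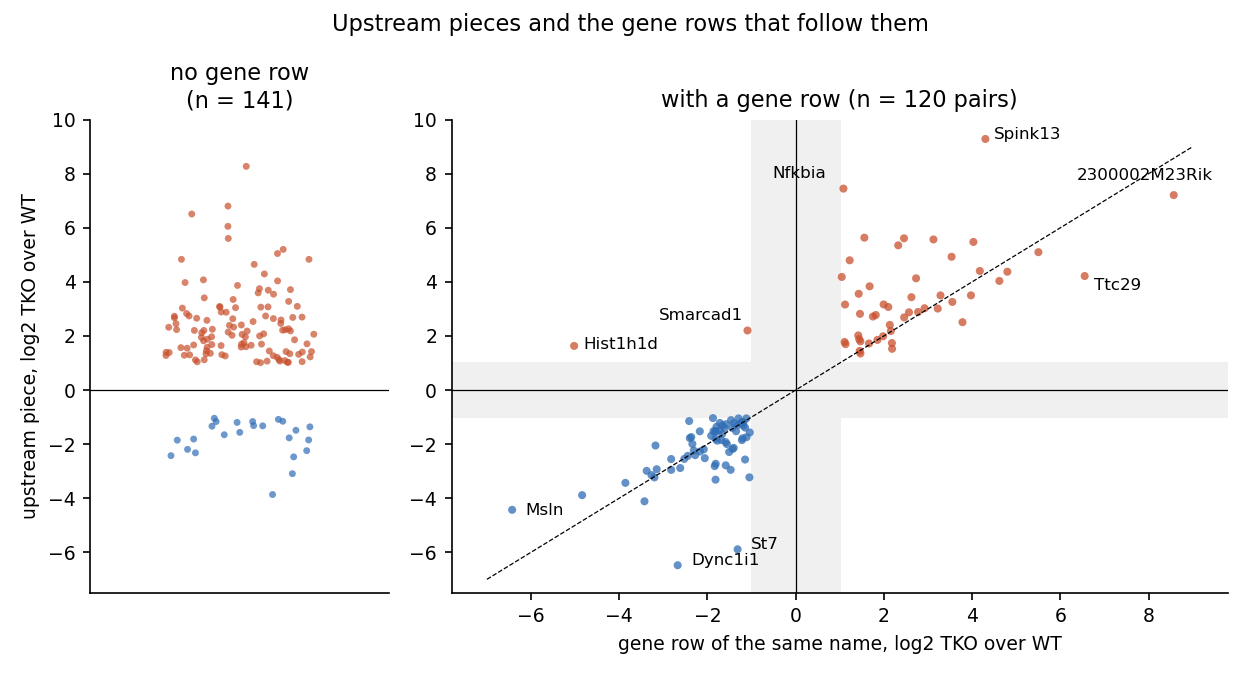
Left, log2 TKO over WT of the 141 upstream pieces without a gene row (spread sideways for legibility). Right, the 120 pairs, with the gene row on the horizontal and the upstream piece on the vertical axis; the dashed line marks equal values, and the grey bands the range below 2-fold that the table leaves out. Hist1h1d and Smarcad1 were the 2 pairs with opposite signs.

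The 5′ edge of each piece, which was not measured as a transcription start, was then set against the annotation. A start was counted as annotated when a GENCODE transcript start on the same strand lay within 1 kb. Starts within 100 bp of the gene start that the piece ran into, or beyond it, were left out. In a short piece, an annotated start near its 3′ edge can thus be counted. By this measure 186 pieces began at no annotated start, 60 at an upstream start of the named gene and 15 at a start of another gene. Of the 186, 136 were higher in TKO (73.1%, Wilson interval 66.3 to 79.0). Of the 60, 24 were higher (40.0%, Wilson interval 28.6 to 52.6), and of the 15, 8. The 2 properties did not coincide. Pieces with neither an annotated start nor a gene row were higher in 102 of 117 cases (87.2%), and those with a gene row but no annotated start in 34 of 69 (49.3%). Pieces that began at an upstream start of their own gene and had a gene row were higher in 14 of 45 (31.1%), and those without a gene row in 10 of 15.

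Whether pieces that began near an upstream start of their gene follow an annotated isoform was not tested. Among the 36 lower ones were Adgrl2, Nrg1, Tet3, which encodes an enzyme that oxidises methylcytosine (-2.52), Nr3c1, the glucocorticoid receptor gene (-1.40), and Cdk6, a cell cycle kinase gene (-1.18). Among the 24 higher ones were Spic, a transcription factor of macrophages (4.40), and Actl6a, a subunit of chromatin remodellers (2.67). Tet3, Nr3c1, Cdk6, Spic and Actl6a were chosen after their values were seen. Of the 261 pieces, 170 (65.1%) overlapped the named gene in GENCODE and 112 (42.9%) by at least 100 bp. Another 22 lay over another gene of the same strand, and 69 over no annotated gene, 51 of which were higher. Among all 261, 18 overlapped another coding gene of the same strand. A start on the opposite strand lay within 1 kb of the start of 13 pieces, and 6 of these were higher.

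In 28 cases a coding gene on the same strand ended within the piece or at most 10 kb before it. Of these pieces 21 were higher in TKO, beside 64.4% of all 261 pieces. Of those upstream neighbours 7 had a gene row of their own, and all 7 had the same direction as the piece. How often neighbouring listed rows on a strand share a direction was not counted, so these 7 stand without a background. Whether RNA ran on from the neighbour was not tested. Clta had a log2 TKO over WT of 6.51, and its upstream neighbour Ccin, a gene of the sperm head, 2.83. Arhgef18 had 4.83, and A430078G23Rik 1.94. Qprt, a gene of NAD synthesis, had 2.02, and Spn, which encodes the leukocyte surface protein CD43, 2.91. Gstm6 had 1.30, and Gstm3, another glutathione transferase gene, 2.07. Lower on both sides were Pcolce (-2.18) with Fbxo24 (-2.61), Pde1b (-1.85) with Nckap1l (-1.70) and Abhd10 (-1.49) with Phldb2 (-1.34). The other 21 neighbours were not listed with a gene row.

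Sequence composition was read in 300-base windows, 250 bases before and 50 from the first base. The ratio of observed to expected CpG is high in most promoters of broadly expressed genes. At the start of the piece its median was 0.23 in higher pieces and 0.37 in lower ones, against 0.385 at the starts of gene rows, 0.227 at those of intergenic rows and 0.384 in 32851 RefSeq promoters of the same window. At the gene start the piece ran into, it was 0.70 for higher pieces and 0.48 for lower ones. A ratio above 0.6 was found at 100 of 141 gene starts without a gene row (70.9%) and at 38 of 120 with one (31.7%), and in 35.8% of all RefSeq promoters. From the start of the piece to the gene start the ratio increased in 137 of 168 higher pieces (81.5%) and 58 of 93 lower ones (62.4%).

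Repeats were more frequent at the 5′ edges of higher pieces than at those of lower ones. More than 50% of the window was soft-masked as repeat at the start of 48 of 168 higher pieces (28.6%) and 7 of 93 lower ones (7.53%). The share was 8.89% at the starts of gene rows and 28.4% at those of intergenic rows. Among pieces with no annotated start alone it was 32.4% for higher and 14.0% for lower ones. The Pgpep1l piece began in a window that was 88.0% repeat, that of 2300002M23Rik in one with 71.0%, and that of Plpp1, printed above, in one with 82.0%. At the gene start the share was at most 1.79% in either direction.

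Short promoter words were searched on both strands of the same windows. GGGCGG, the core of the binding site of Sp1, was present at 25.7% of the piece starts and 51.7% of the gene starts. It was present in 35.7% of all RefSeq promoters, at 37.7% of the starts of gene rows and at 13.4% of those of intergenic rows. At gene starts without a gene row it was present in 66.0%, and with one in 35.0%. TATAAA, the TATA box word, was present at 17.9% of the starts of higher pieces and 10.8% of those of lower pieces. It was present in 13.6% of RefSeq promoters, at 15.2% of the starts of gene rows and at 19.1% of those of intergenic rows. TGACTCA, the word bound by AP-1, was present at 6.13% of piece starts and 5.20% of RefSeq promoters. No word holds another. A match describes these letters and no binding.

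**Figure D4:**
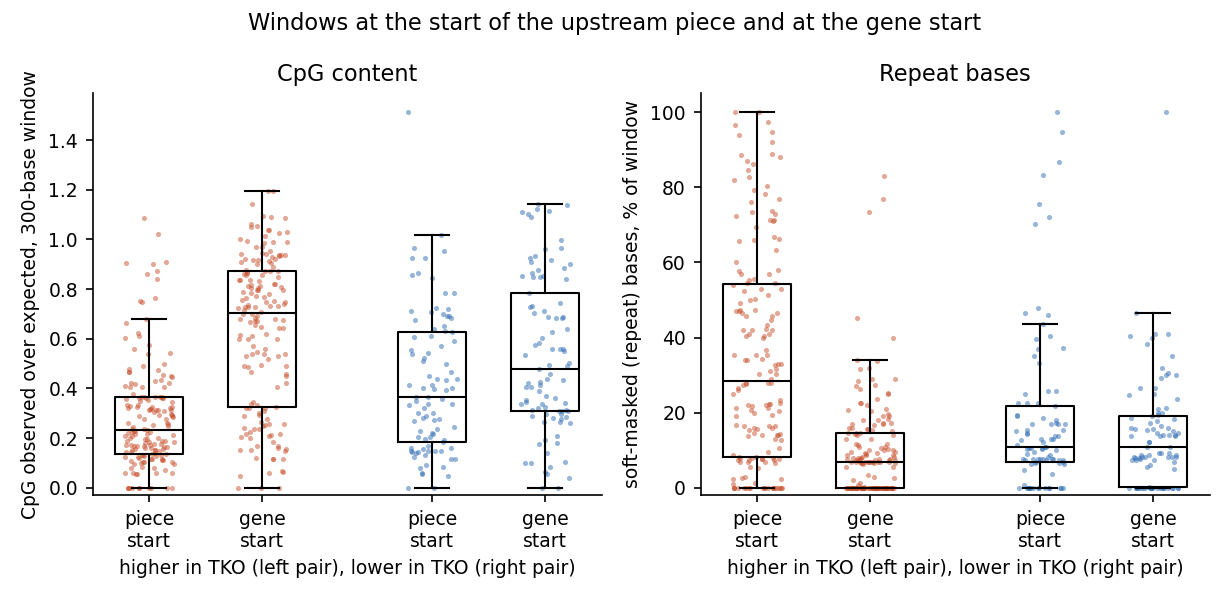
CpG content as the observed over expected ratio (left) and the share of soft-masked repeat bases in percent (right) in 300-base windows, at the start of the upstream piece and at the gene start, for pieces higher (red) and lower (blue) in TKO; boxes give the median and quartiles, whiskers the range within 1.5 times the box height, and points the single pieces. In higher pieces the median CpG ratio was 0.23 at the piece start and 0.70 at the gene start.

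R-loop signal was taken from the deposited MapR peak lists, of which the RNH libraries held 25392 and 6458 peaks in TKO and 22336 and 6612 in WT. Replicate 1 was the longer list in both genotypes, so each library is given on its own. A peak overlapped the body of 58.6% and 16.1% of the pieces in TKO replicates 1 and 2 and 57.1% and 17.2% in WT replicates 1 and 2. For the bodies of gene rows these values were 38.7% and 9.30% in TKO and 36.7% and 10.0% in WT. For those of intergenic rows they were 20.6% and 7.31% in TKO and 21.3% and 6.83% in WT. These bodies are unlike, since a piece runs up to a gene start and a peak there can count in its body. The median width was 7888 bp for pieces and 16757.5 bp for gene rows. How many body peaks lay at the gene start was not counted. The genotypes differed by 0.19 percentage points for pieces (37.4% ± 30.1 in TKO and 37.2% ± 28.2 in WT, SD, n = 2 each, exact two-sided permutation test, p = 1). With 2 libraries on each side such a test cannot go below 0.33. Each control library had a peak in 1 piece. The labels do not say whether replicates were separate cultures, so this p measures the spread between these libraries, which may be technical.

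Over all pieces, peaks were more frequent at the gene start than at the start of the piece in each of the 4 RNH libraries. Within 1 kb of the gene start, 46.4% and 11.1% of pieces had a peak in TKO and 47.5% and 11.9% in WT. Within 1 kb of the start of the piece, 21.8% and 3.45% had one in TKO and 21.1% and 5.36% in WT, a difference of -0.57 percentage points between genotypes (12.6% ± 13.0 in TKO and 13.2% ± 11.1 in WT, SD, n = 2 each, exact permutation test, p = 1). With peak lists cut to equal length this difference was -2.11 (exact permutation test, p = 0.33, the smallest possible). The order of the 2 places did not hold in every subset. For pieces that began at an upstream start of their gene, the start of the piece held a peak in 53.3% and 6.67% in TKO and 45.0% and 8.33% in WT, and the gene start in 30.0% and 8.33% in TKO and 36.7% and 5.00% in WT. For pieces with a gene row, the start held one in 30.0% and 4.17% in TKO and 28.3% and 7.50% in WT. Starts of gene rows held a peak in 32.2% and 6.27% of cases in TKO and 29.1% and 5.65% in WT, and starts of intergenic rows in 14.9% and 4.63% in TKO and 14.5% and 4.04% in WT. Gene starts without a gene row held peaks in 61.7% and 16.3% in TKO and 62.4% and 15.6% in WT. With a gene row the values at the gene start were 28.3% and 5.00% in TKO and 30.0% and 7.50% in WT. All annotated coding starts, 81027 distinct transcript starts of coding genes, gave 39.0% and 11.2% in TKO and 35.7% and 9.32% in WT. A gene with several starts counts several times among these, whereas each piece gives 1 gene start. In each of the 4 libraries the gene starts without a gene row thus stood above, and those with one below, the coding starts. CpG content, given above, differed between the same 2 sets of gene starts, and its part in these shares was not tested.

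**Figure D5:**
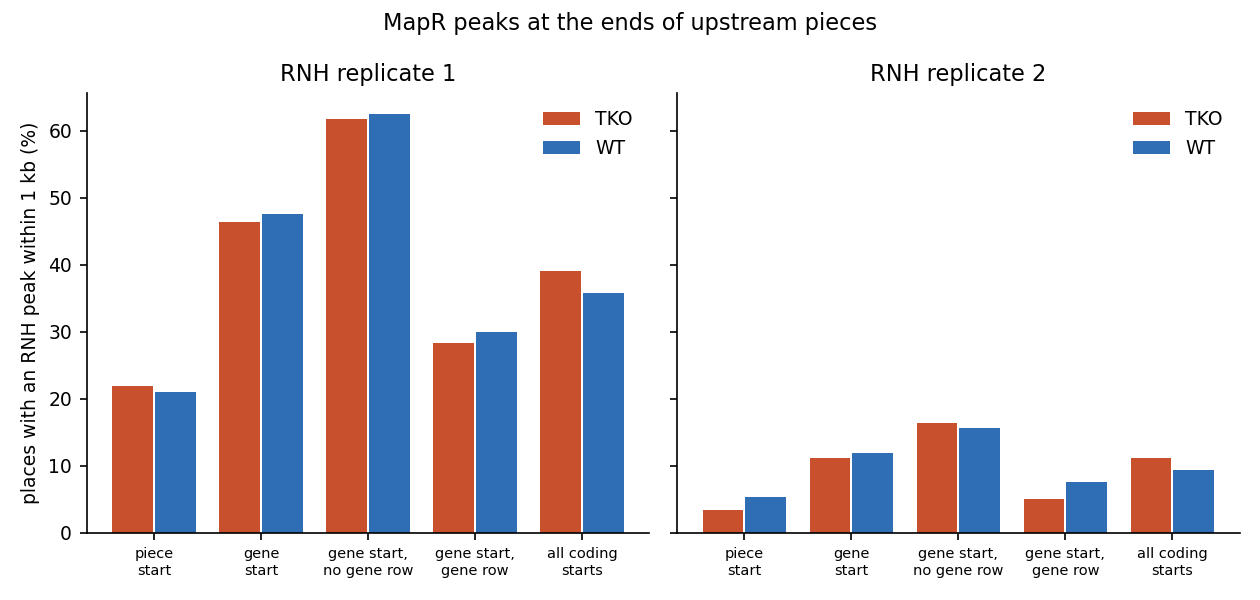
Percentage of places with an RNH peak within 1 kb in replicate 1 (left) and replicate 2 (right), TKO in red and WT in blue, at the start of the upstream pieces, at the gene starts they run into, at those gene starts without and with a gene row, and at all annotated coding starts. The bars are single libraries; TKO and WT of the same number stood within 3.28 percentage points of each other at each place.

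Peaks were then set against the direction in cheRNA. Gene starts of higher pieces held peaks in 53.0% and 15.5% in TKO and 53.6% and 12.5% in WT, and those of lower pieces in 34.4% and 3.23% in TKO and 36.6% and 10.8% in WT. Starts of higher pieces held them in 16.1% and 3.57% in TKO and 15.5% and 3.57% in WT. Starts of lower pieces held them in 32.3% and 3.23% in TKO and 31.2% and 8.60% in WT, so that the order turned for replicate 2 of TKO.

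A peak in all 4 RNH libraries was found at the gene start of 14 pieces, 13 of which were higher in TKO. Of all pieces 64.4% were higher, and of those without a gene row 83.0%. How often coding starts in general hold a peak in all 4 was not counted, and the part of the gene-row split was not tested. At the start of the piece, a peak in all 4 was found for 2 pieces. The 2 were those of Iqsec1, an exchange factor for Arf proteins whose piece of 178647 bp was 4.58-fold lower, and Shf, an adaptor gene whose piece was 6.84-fold higher. Both were counted as beginning at an upstream start of their own gene. That start lay inside the piece, 86 bp after its 5′ edge for Iqsec1 and 977 bp after it for Shf. The Shf piece was only 1220 bp wide, so its windows at the piece start and the gene start overlap. Among the 14 gene starts, chosen after their values were seen, those of Dynll1, a dynein light chain gene (log2 TKO over WT of the piece 1.86), Arnt, a partner of the hypoxia factors (1.03), and Usp9x, a deubiquitinase gene (1.05), had no gene row. B3glct had one. At the gene start of Abhd10, the 1 lower piece of the 14, the authors' fold enrichment of the peak over background was 5.56 and 5.25 in TKO and 5.57 and 5.59 in WT. Both TKO libraries and no WT library had a peak at 2 gene starts, and both WT libraries and no TKO library at 2.

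Pathway lists held about as few upstream pieces as coding genes in general. On the chromosomes used, 252 of 18881 coding genes (1.33%) had one, and so did 2 of the 190 genes of all lists together (1.05%). At this background a list of this size holds few or none, and a count of 0 says nothing about the list. The count was 0 of 22 germline and meiosis genes, 19 genes of the m6A pathway, 18 genes of nuclear RNA decay, 19 genes of transcription termination and the Integrator complex and 29 imprinted genes. It was also 0 of 11 markers of neuroectoderm, 11 of mesoderm, 14 of endoderm and 11 of fibroblasts. Among the 9 linker histone genes Hist1h1d had one. GGACT, a word that the m6A writer prefers, occurred 0.90 times per kb in the sense strand of the pieces and 0.87 times in the antisense strand. In the gene rows of the pairs it occurred 0.87 and 0.88 times.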

How the data were processed

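The submitters' processing notes name mm10, DESeq2, TopHat2, BWA, MACS2, bedtools and SAMtools, with no version. The authors deposited 1 cheRNA table with a log2 fold change per row, and 1 peak list per MapR library with a fold enrichment (a ratio), -log10 p, -log10 q and a score per peak. No read counts were used, so depth is unknown.

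Here the log2 values were multiplied by -1 (see the H1 genes above) and coordinates were made 1-based. Pieces were paired with the nearest gene row of the same name and set against GENCODE M21 and RefSeq GRCm38.p6, the build of the files, with pandas 2.3.3 and pysam 0.24.0. The 32851 promoters come from RefSeq. RNH peaks that overlapped a control peak were removed, 1 bp of overlap counted, and TKO was set against WT by exact two-sided permutation tests. These steps were tested on simulated data. Members, lists and alternatives were chosen with earlier results of these data known. Named are the 12 highest and 12 lowest pieces. By the signed difference, piece minus gene row, the 8 highest and the 8 lowest pairs are named. Also named are pairs of opposite sign, pieces with a start peak in all RNH libraries, list members and, where said, others. The authors' other assays in the 32 samples were not analysed here.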

Additional observations from a re-analysis of the deposited data

How the results depend on the processing

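With an absolute log2 of at least 2, the share of pieces higher in TKO was 72.9%, the median log2 was 2.68, and the shares without and with a gene row were 90.4% and 54.9%, so that with a gene row most pieces were then higher; these subsets hold fewer pieces. The share was 70.3% among pieces that do not overlap their gene. An overlap of at least 100 bp was met by 42.9%. Shares stayed within the reported intervals with chromosomes 9 and 11, RefSeq starts, 500 bp windows or any other listed row of the name. With any other listed row of the name counted, 79 of 154 pieces with such a row were higher (51.3%). That share lay just inside the interval of 34.0 to 51.4, and the majority turned from lower to higher. Without such a row 89 of 107 were higher (83.2%). The alternatives by gene row and start were chosen after seeing the data. One row per gene name is the same set.

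The MapR difference over bodies turned to -2.30 percentage points with -log10 q of at least 5, -1.72 with equal list lengths and -0.77 when at least 50% of the peak had to lie in the piece; the cause was not tested. At piece starts equal list lengths gave -2.11 (exact permutation test, p = 0.33). Leaving out 1 library gave -21.1 to 21.5 over bodies and -9.77 to 8.62 at piece starts, since replicate 1 lists are longer and leaving one out compares unlike replicates. With the replicate number as a block, the differences were 0.19 and -0.57 (p = 1 for both, exact sign permutation over 2 pairs). Deviations of same-numbered libraries correlated at 0.29 and 0.26 over pieces, and the labels do not pair them. Without sample values, no cheRNA result could be recomputed without a replicate.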
